A study of Homo sapiens with 4 samples.

Results

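Mediator is the large protein complex that carries signals from DNA-bound transcription factors to RNA polymerase II. The transcripts of 9 Mediator genes are examined here for RNA bound by ADAR. They are MED13 and MED13L, paralogous subunits that tie the kinase module to the core complex, CDK8 and CDK19, its paralogous kinases, CCNC, the cyclin C gene, MED1 of the middle, MED14, the scaffold, and MED23 and MED24 of the tail. A cluster, a short stretch of RNA that the authors called from the reads, was given to a gene when its midpoint lay inside the gene's RefSeq span of GRCh38 on the gene's strand. By that rule the 9 genes held 1220 of 534161 clusters in replicate 1, 388 of 155848 clusters in replicate 2 and 22 of 1717 peaks in the authors' list that combines both replicates. These are 1630 of 691726 entries over the 3 lists.

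The study mapped ADAR on RNA by eCLIP, in which protein and RNA are joined by ultraviolet light, the protein is pulled down with an antibody, and the RNA that comes with it is sequenced. There were 2 immunoprecipitated (IP) libraries, pulled down through ADAR1, and 2 libraries of input RNA, which make up replicates 1 and 2. All 4 came from K562, a human leukaemia line with erythroid features, grown in standard medium with no treatment. Cells were crosslinked at 254 nm and 400 mJ/cm2. Whether the replicates were separate cultures is not stated in the labels, and what separates them may be technical. Of 12 erythroid marker genes, replicate 1 had clusters in 12 and replicate 2 in 11, and of 10 hepatocyte markers they had clusters in 2 and 0.

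ADAR changes adenosine to inosine in double-stranded RNA. In human transcripts most of that editing is known to fall where inverted copies of a repeat, chiefly Alu, pair with each other, often in introns and untranslated regions. The Mediator kinase module binds the core complex reversibly and controls its contact with the polymerase. Exons, introns and repeats were not annotated here, so positions are given as coordinates and as distance from the gene's start.

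Every fold and p below is the authors' own value for a peak, given as log2 of IP over input and as −log10 p. Enriched peaks are clusters that reach 3 both in log2 fold and in −log10 p. The whole-number reads behind the folds could be recovered, as set out under the processing, and are given as IP reads over input reads. The libraries differ in depth, with 3.33 IP reads for each input read in replicate 1 and 0.553 in replicate 2. With 1 input read, replicate 1 reached an enriched call from 37 IP reads and replicate 2 from 9, and with 5 input reads from 134 and from 23. Taking every cluster, replicate 1 had a median log2 fold of 0.07 and replicate 2 had 1.85, and counts of enriched peaks are read within a replicate for that reason. Intervals on folds and shares are exact 95% binomial intervals that cover counting error only. The genes were chosen by the counts of reproducible and enriched peaks of MED13 in these same lists, so what follows is a description and carries no test.

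MED13 held 13 reproducible peaks, the entries of the combined list, and MED13L held 9, while the other 7 genes held 0. Gene shares here cover 13157 genes with at least 5 clusters over both replicates and a strand that could be set. Of these, 4.43% held at least 1 reproducible peak. Of the 179 clusters of MED13 in replicate 1, 6 were enriched (3.35%), and of its 92 in replicate 2, 26 were (28.3%). The enriched share of every cluster in the list was 1.39% for replicate 1 and 12.8% for replicate 2. In MED13L the enriched peaks were 9 of 469 clusters for replicate 1 (1.92%) and 13 of 148 for replicate 2 (8.78%). By value alone, its share was above that of all clusters in replicate 1 and below it in replicate 2. No interval was set on the shares of MED13 or MED13L. Whether they differed from all clusters beyond counting error was therefore not tested. MED13 and MED13L were the only members with an enriched peak in each replicate, which 13.6% of the 13157 genes had.

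**Figure D1:**
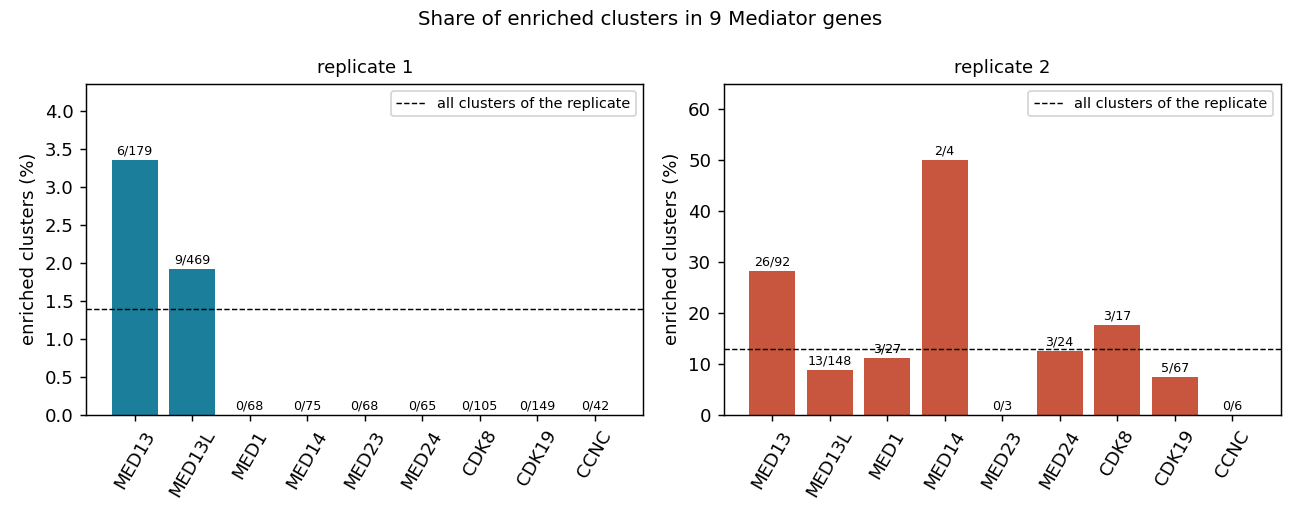
Share of clusters called enriched (%) in each of the 9 genes, with replicate 1 on the left and replicate 2 on the right, on separate scales that start at 0; the numbers over the bars are enriched peaks over clusters, and the dashed lines mark the share over all clusters of that replicate. In replicate 1 MED13 and MED13L have bars, while in replicate 2 all members but MED23 and CCNC have one, with MED14 resting on 4 clusters.

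MED13 lies on the minus strand of chromosome 17 at chr17:61942605-62065278, a span of 122674 bases. All 271 clusters of the replicates in that span were on the minus strand. It held 1.46 clusters per kb in replicate 1 and 0.75 in replicate 2, against 1.47 and 0.46 per kb in MED13L. MED13 clusters ranged in log2 fold between −2.84 and 4.63 in replicate 1, with a median of 0.14, and between −2.02 and 8.19 in replicate 2, with a median of 1.98. Most clusters of the gene were thus near the input level in replicate 1. Folds ran on across the threshold without a gap, and a log2 fold of at least 2 in place of 3 gave 16 enriched peaks in replicate 1 in place of 6.

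The reproducible peaks of MED13 lay within chr17:62038135-62046992, a stretch of 8858 bases that makes up 7.22% of the gene and begins 18.3 kb from its start. The stretch was drawn around those peaks, which are made from clusters of the same replicates, so the counts and folds inside and outside it describe the gene and support nothing. It held 5 of the 6 enriched peaks of replicate 1 and 19 of the 26 of replicate 2. Inside the stretch the enriched peaks were 5 of 40 clusters for replicate 1 (12.5%) and 19 of 30 for replicate 2 (63.3%), against 1 of 139 (0.719%) and 7 of 62 (11.3%) elsewhere in the gene. The median log2 fold inside was 0.59 in replicate 1 and 3.46 in replicate 2, against −0.01 and 1.85 elsewhere. No enriched peak lay in the first or last 3 kb of the gene in any list, but clusters were few there. Replicate 1 had 7 in the first and 1 in the last 3 kb, and replicate 2 had 0 and 1.

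**Figure D2:**
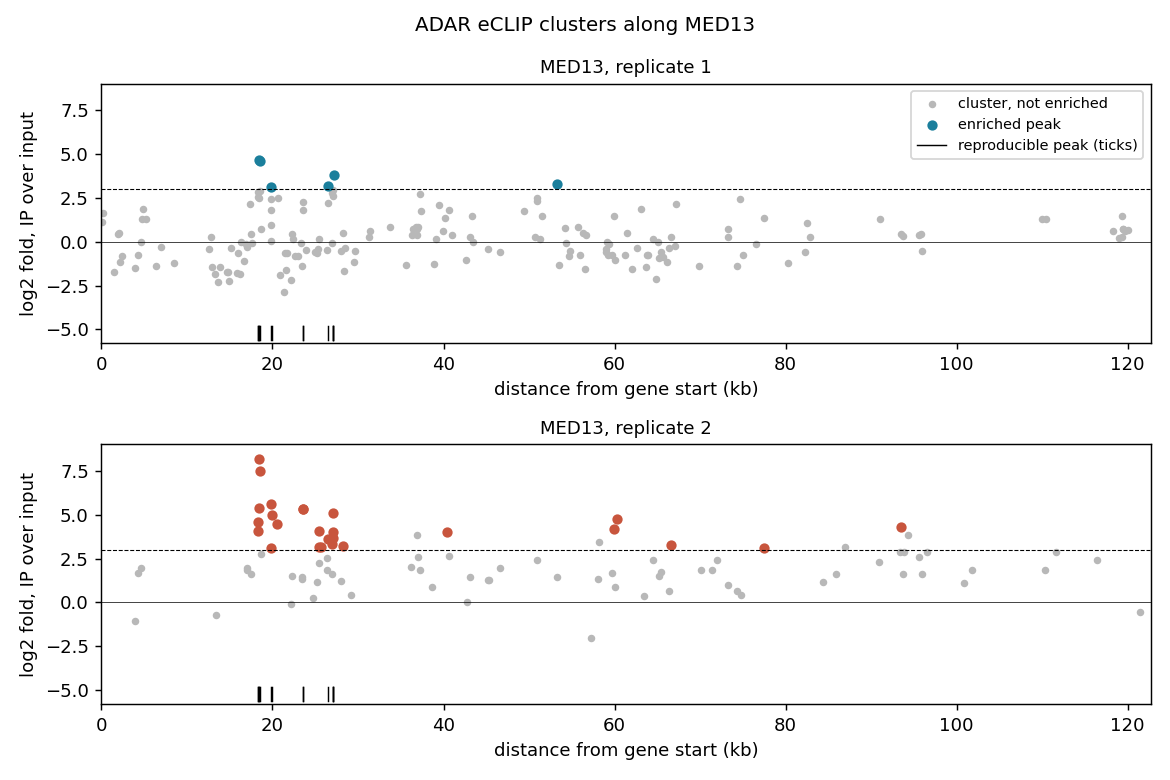
Log2 fold of IP over input for each cluster of MED13 against its distance from the gene's start (kb), with replicate 1 above and replicate 2 below; coloured points are enriched peaks, the dashed line marks a log2 fold of 3, and ticks at the foot mark the 13 reproducible peaks. Enriched peaks of both replicates gather between 18.3 and 27.1 kb, and replicate 2 has 7 more beyond that stretch against 1 in replicate 1.

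Touching reproducible peaks of MED13 merged into 6 sites of 51 to 117 bases. The strongest site, at chr17:62046730-62046827, lay 18.5 kb from the start and held a pair of touching peaks. Its peak at chr17:62046801-62046827 had 239 IP reads over 1 input read in replicate 1 and 161 over 1 in replicate 2. The log2 fold was 6.17 in replicate 1 (interval 3.67 to 11.5) and 8.19 in replicate 2 (5.69 to 13.5), and the listed value was 7.18 with a −log10 p of 25.3. Input was a single read in both libraries, so the IP reads were plentiful and the fold itself was loosely fixed. The touching peak at chr17:62046730-62046800 had 325 IP reads over 4 input reads in replicate 1 and 202 over 2 in replicate 2. Its log2 fold was 4.61 (3.24 to 6.49) in replicate 1 and 7.51 (5.64 to 10.6) in replicate 2, so the intervals of the replicates overlapped.

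Next to it, at chr17:62046876-62046992, a second site of 117 bases held 3 peaks with lower folds. The peak at chr17:62046876-62046928 had 160 IP over 7 input reads in replicate 1 and 68 over 3 in replicate 2, for log2 folds of 2.78 and 5.36. At chr17:62046929-62046950 there were 122 over 6 reads in replicate 1 and 65 over 5 in replicate 2, for 2.61 and 4.55. The peak at chr17:62046951-62046992 had 59 over 3 and 47 over 5 reads, for 2.56 and 4.09. All 3 peaks were below a log2 fold of 3 in replicate 1 and above it in replicate 2. Their listed values were 4.07, 3.58 and 3.33.

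At 19.9 kb from the start, the site chr17:62045376-62045447 held 2 peaks. The peak at chr17:62045393-62045447 had 153 IP over 7 input reads in replicate 1 and 81 over 3 in replicate 2, for log2 folds of 2.72 and 5.61. Its neighbour at chr17:62045376-62045392 had 100 over 4 and 52 over 3 reads, for 2.91 and 4.97. Both were below a log2 fold of 3 in replicate 1 over these intervals. An overlapping replicate 1 cluster with other ends, chr17:62045376-62045424, was enriched at 3.11 with 115 over 4 reads, so the call in that replicate turned on where the cluster's ends were set.

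The site at chr17:62041647-62041755, 23.6 kb from the start, was the one on which the replicates differed most. Its peaks had 179 IP over 13 input reads and 93 over 8 in replicate 1, for log2 folds of 2.05 (1.24 to 2.99) and 1.80 (0.77 to 3.06). In replicate 2 the same intervals had 195 over 9 and 155 over 7 reads, for 5.29 (4.34 to 6.44) and 5.32 (4.25 to 6.66). Their listed folds of 3.67 and 3.56 thus averaged a value below 3 and a value above 5. The intervals of the replicates did not overlap for either peak.

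Near the far end of the stretch, the peak at chr17:62038705-62038755 had 241 IP over 8 input reads in replicate 1, for a log2 fold of 3.18 (2.18 to 4.41). Over the same interval replicate 2 had a fold of 3.88, and its ratio of 57 to 7 did not fix the reads. It was the only MED13 peak whose interval came from replicate 1.

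The last site, chr17:62038135-62038228, lay 27.1 kb from the start and held 3 peaks. At chr17:62038135-62038168 replicate 1 had 115 IP over 1 input read and replicate 2 had 38 over 2, for log2 folds of 5.11 (2.60 to 10.4) and 5.10 (3.15 to 8.20). It was the only one of the 13 peaks that was not higher in replicate 2. The peak at chr17:62038169-62038202 had 202 over 7 and 80 over 9 reads, for 3.12 and 4.01. That at chr17:62038203-62038228 had 157 over 7 and 64 over 9 reads, for 2.75 and 3.68.

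Over the 13 MED13 peaks the median log2 fold was 5.10 in replicate 2 and 2.78 in replicate 1, and the median difference of replicate 2 minus replicate 1 was 2.02. Replicate 2 was higher in 12 of 13 peaks (92.3%), against 85.5% of the 1714 peaks of the whole list with both folds known, where the median difference was 1.54. Both replicates reached a log2 fold of 3 in 5 of the 13 peaks (38.5%), against 79.4% of the whole list. The other 8 (61.5%) reached it in replicate 2 alone, against 17.7% of the whole list. The listed folds of those 8 peaks therefore passed 3 as a mean, through replicate 2.

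**Figure D3:**
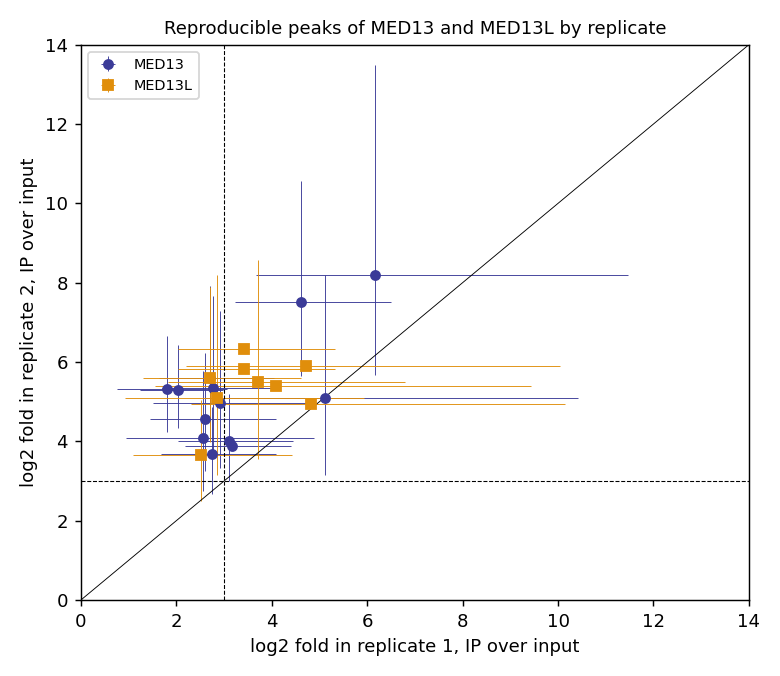
Log2 fold in replicate 2 against log2 fold in replicate 1 for the 13 MED13 and 9 MED13L reproducible peaks, with exact 95% intervals where the reads were recovered; dashed lines mark a log2 fold of 3 and the solid line marks equal folds. All peaks lie above 3 in replicate 2, while 8 MED13 and 3 MED13L peaks lie below 3 in replicate 1.

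Beyond the stretch, replicate 1 had 1 enriched peak in MED13, at chr17:62011920-62011990 with 65 IP over 2 input reads and a log2 fold of 3.29. A replicate 2 cluster there had a fold of 1.44. Replicate 2 had 7 enriched peaks outside the stretch, with log2 folds of 3.08 to 4.76. Of these, chr17:62036998-62037096 had the most reads, with 66 over 13 and a fold of 3.20, where the overlapping replicate 1 cluster had 0.49. The peak with the highest fold outside, at chr17:62004984-62005021, had 15 over 1 reads and a fold of 4.76. No peak outside the stretch was enriched in both replicates.

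Other gene spans add little to MED13. The signal recognition particle pseudogene RN7SL800P is the only other annotated span inside the gene, and it held 1 cluster, in replicate 1, at a log2 fold of −0.15. No source used here says how reads that match several places were mapped.

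MED13L, the paralog of MED13, lies on the minus strand at chr12:115958576-116277693, a span of 319118 bases. Its 9 reproducible peaks formed 5 sites between 99.8 and 122.8 kb from the gene's start, within chr12:116154915-116177935. That stretch too was drawn around the reproducible peaks. As a description, it held 6 of the 9 enriched peaks of replicate 1 and 9 of the 13 of replicate 2. As in MED13, 0 enriched peaks lay in its first or last 3 kb, where clusters were few. The first and last 3 kb held 6 and 13 clusters in replicate 1 and 3 and 0 in replicate 2.

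The MED13L peak with the highest listed fold, 5.31, was chr12:116177922-116177935, with 88 IP over 1 input read in replicate 1. Its log2 fold was 4.73 in replicate 1 (2.21 to 10.0) and 5.90 in replicate 2, where the ratio was 33 to 1. The touching peak at chr12:116177886-116177921 had 94 over 1 reads and a fold of 4.82 in replicate 1, the highest among that replicate's own clusters in the 9 genes, and 4.94 in replicate 2. Both sat on a single input read in replicate 1.

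At 111 kb from the start, chr12:116166494-116166553 had 87 IP over 4 input reads in replicate 1 and 80 over 3 in replicate 2, for log2 folds of 2.71 and 5.59. The cluster beside it, chr12:116166476-116166493, had the highest MED13L fold of replicate 2, 6.90 with 66 over 1 reads, and is not in the combined list. The replicate 1 cluster that overlaps it had a fold of 1.99 with 53 over 4 reads. This place was thus well above the threshold in replicate 2 and below it in replicate 1.

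The remaining 6 reproducible MED13L peaks fell in 3 sites between chr12:116154915 and chr12:116155353. The site of 84 bases at its far end held 3 peaks with log2 folds of 3.43, 3.43 and 4.10 in replicate 1 and 5.84, 6.33 and 5.41 in replicate 2. Of these, chr12:116154915-116154962 and chr12:116154963-116154981 both had 143 IP over 4 input reads in replicate 1 and may hold the same reads there. The peak at chr12:116155283-116155330 had 88 over 2 reads in replicate 1 and 50 over 2 in replicate 2, for 3.73 and 5.50. The other 2, at chr12:116155331-116155353 and chr12:116155197-116155266, were below 3 in replicate 1, at 2.85 and 2.51, and had 5.10 and 3.66 in replicate 2.

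Both replicates reached a log2 fold of 3 in 6 of the 9 MED13L peaks (66.7%), and 3 reached it in replicate 2 alone. All 9 had a higher fold in replicate 2, with medians of 3.43 in replicate 1 and 5.50 in replicate 2. MED13L also held a place enriched in both replicates that the combined list lacks. There, replicate 1 had chr12:116220391-116220429 at 4.67 with 254 IP over 3 input reads and chr12:116220430-116220468 at 4.60 with 242 over 3. Replicate 2 had chr12:116220387-116220466 at 4.61 with 27 over 2 reads, so the folds of the replicates were nearly equal. The microRNA gene MIR620 and the small RNA pseudogene RNU6-1188P lie inside MED13L, and they held 0 clusters and 1 cluster at a fold of −1.06.

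**Figure D4:**
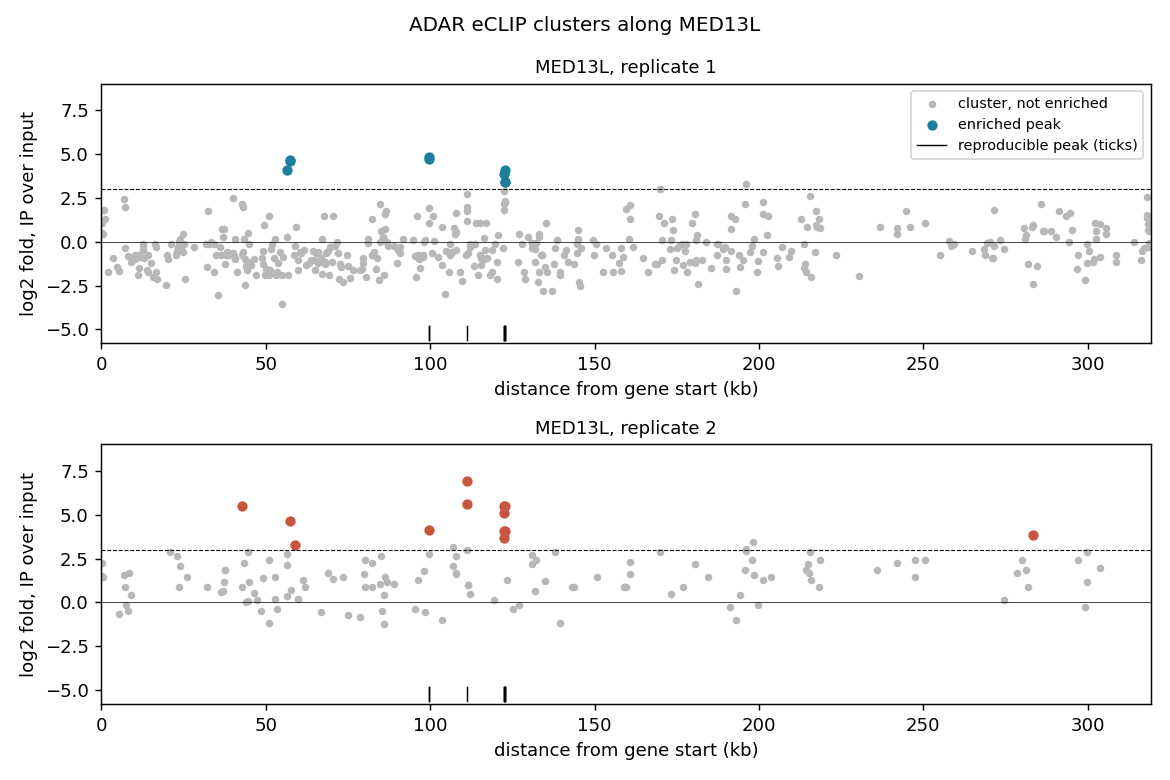
Log2 fold of IP over input for each cluster of MED13L against its distance from the gene's start (kb), with replicate 1 above and replicate 2 below; coloured points are enriched peaks, the dashed line marks a log2 fold of 3, and ticks at the foot mark the 9 reproducible peaks. The reproducible peaks lie between 99.8 and 122.8 kb, and both replicates also have enriched peaks near 57.3 kb.

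The other kinase module members among the 9 genes had no enriched peak in replicate 1. Of the 13155 genes counted there, 18.0% had at least 1, so having none sets no gene apart. CDK8, a kinase that acts with cyclin C, spans chr13:26254129-26405238 on the plus strand and had 0 of 105 clusters enriched in replicate 1, with a highest log2 fold of 2.97. In replicate 2 it had 3 among 17, led by chr13:26369313-26369353 at 4.55 with 13 IP over 1 input read. The touching peak at chr13:26369354-26369388 had 15 over 2 reads and a fold of 3.76, and chr13:26294180-26294274 had 12 over 1 and 4.44. Those are low read numbers, near the 9 that an enriched call needed in that replicate.

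CDK19, the paralog of CDK8, spans chr6:110609978-110815855 on the minus strand and had 0 of 149 clusters enriched in replicate 1, with a highest log2 fold of 2.51. In replicate 2 it had 5 among 67. Touching peaks between chr6:110803773 and chr6:110803892 accounted for 3 of them, with folds of 3.55, 4.10 and 4.31 and with 13 over 2, 19 over 2 and 11 over 1 reads. The other 2, at chr6:110749454-110749533 and chr6:110719396-110719522, had 9 over 1 and 11 over 2 reads, for 4.02 and 3.31. CDK19 thus had more enriched peaks than CDK8 in replicate 2, among more clusters.

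CCNC, at chr6:99542387-99568814 on the minus strand, had 0 of 42 clusters enriched in replicate 1 and 0 of 6 in replicate 2. Its highest log2 folds were 2.73 and 2.44. The span of the pseudogene TSTD3 covers the whole gene, and 13 clusters of replicate 1 and 2 of replicate 2 on the opposite strand were left out, 0 of them enriched.

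MED1, the middle subunit known as the contact of nuclear receptors, spans chr17:39404285-39451263 on the minus strand. Replicate 1 gave it 68 clusters and 0 enriched, with a top log2 fold of 2.79, and replicate 2 gave it 27 and 3. The replicate 2 peaks were chr17:39419163-39419272 at 4.66 with 14 IP over 1 input read, chr17:39435777-39435853 at 4.31 with 33 over 3, and chr17:39425423-39425505 at 4.06 with 37 over 4. The median fold of its clusters was 0.49 in replicate 1 and 2.44 in replicate 2.

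MED14, the scaffold that joins the parts of the core, lies at chrX:40648305-40736159, with all 79 of its clusters on the minus strand. Of its 75 clusters in replicate 1, 0 were enriched, with a highest log2 fold of 2.91. In replicate 2 it had 4 clusters, of which 2 were enriched, at chrX:40658772-40658850 with 13 over 1 reads and a fold of 4.55 and at chrX:40732699-40732819 with 12 over 2 and 3.44. Its share of 50% has an interval of 6.76% to 93.2% and places it nowhere among the members.

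Of the tail subunits, MED24, at chr17:40019104-40054408, had 0 of 65 clusters enriched in replicate 1 and 3 of 24 in replicate 2. Its highest log2 fold in replicate 1, 3.17, came with a −log10 p of 2.32 and was not called. The replicate 2 peak at chr17:40053022-40053103 had 49 over 7 reads and a fold of 3.66, and it lay 1.35 kb from the gene's start, the only enriched peak of the 9 genes within 3 kb of an end. The touching peaks chr17:40046018-40046043 and chr17:40046044-40046086 both had 29 over 5 reads and 3.39, so they may hold the same reads. The replicate 1 cluster over them had 66 over 4 reads and a fold of 2.31. MED23, at chr6:131573966-131628313, had 0 of 68 clusters enriched in replicate 1 and 0 of 3 in replicate 2, with highest folds of 2.66 and 0.44.

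The 7 members other than MED13 and MED13L had 0 of 572 clusters enriched in replicate 1, against 1.39% of all clusters. That 0 was fixed by leaving out the only 2 members with an enriched peak there, so it is a description. In replicate 2 they had 16 of 148 (10.8%, interval 6.31% to 17.0%), against 12.8% of all clusters. A replicate 1 cluster overlapped 15 of those 16, with log2 folds between −0.997 and 2.31 and a median of 1.07. At these places replicate 1 thus had reads and a fold below 3. At least 1 enriched peak in replicate 2 was found in 7 of the 9 members. Of the 13157 genes counted above, 11412 had a cluster there, and 43.5% of those had an enriched peak. In replicate 1 it was 2 of 9, against 18.0% of 13155 such genes. Having at least 1 depends on a gene's number of clusters, which in replicate 2 ran from 3 in MED23 to 148 in MED13L. These gene counts are not matched for it.

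Over all 9 genes, the enriched peaks were 15 of 1220 clusters for replicate 1 (1.23%, interval 0.690% to 2.02%) and 55 of 388 for replicate 2 (14.2%, 10.9% to 18.0%). Both intervals include the share over all clusters, 1.39% and 12.8%. As a group, then, the 9 genes had shares within counting error of those of all clusters, and the enriched peaks were unevenly spread among them.

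The reads behind the enriched peaks were few on the input side. In replicate 1 IP reads ranged from 56 to 319 with a median of 115, and input reads from 1 to 8 with a median of 3. In replicate 2 IP reads ranged from 9 to 202 with a median of 30, and input reads from 1 to 17 with a median of 3. Input was under 5 reads in 14 of 15 and 38 of 55 peaks, and it was a single read in 4 and 13. An input count of 1 may stand for none, since a ratio over 0 has no finite logarithm, and no source used here says how the authors treated such cases. None of the 6 MED13 peaks of replicate 1 and 5 of its 26 in replicate 2 rested on a single input read.

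**Figure D5:**
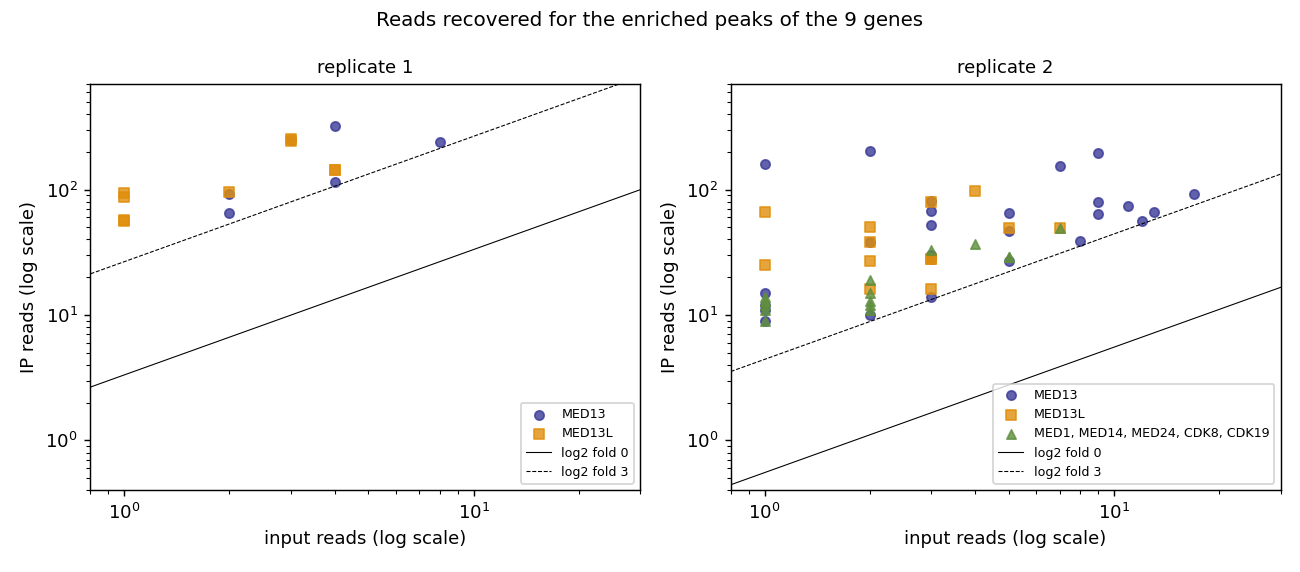
IP reads against input reads for each enriched peak of the 9 genes, both on log scales, with replicate 1 on the left and replicate 2 on the right; the solid line marks a log2 fold of 0 and the dashed line a log2 fold of 3 at that replicate's depth. MED13 peaks reach 319 IP reads in replicate 1 and 202 in replicate 2, while peaks of MED1, MED14, MED24, CDK8 and CDK19 are seen in replicate 2 alone, with 9 to 49 IP reads.

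Of the 15 enriched peaks of replicate 1, an enriched peak of replicate 2 overlapped 13 (86.7%, interval 59.5% to 98.3%) and any cluster of replicate 2 overlapped all 15. Of the 55 enriched peaks of replicate 2, an enriched peak of replicate 1 overlapped 11 (20.0%, 10.4% to 33%), and any cluster of replicate 1 overlapped 48 (87.3%). By gene, 5 of 6 and 6 of 26 peaks of MED13 and 8 of 9 and 5 of 13 peaks of MED13L were matched in this way. Most unmatched peaks of replicate 2 thus lay over a replicate 1 cluster that was not enriched.

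Clusters of the replicates were paired where each was the other's best overlap, which gave 231 pairs in the 9 genes. The log2 fold was higher in replicate 2 in 210 of them (90.9%), by a median of 1.63 (interval 1.37 to 1.83), against 1.36 over the 87894 pairs of all clusters. MED13 had 48 pairs with a median difference of 2.16 (1.76 to 2.44), and MED13L had 96 with 1.37 (1.06 to 1.69). With at least 5 input reads in both replicates the difference was 1.63 over 53 pairs of the 9 genes, 1.99 over 22 pairs of MED13 and 0.82 over all 16965 such pairs. At that minimum the interval was 1.20 to 2.54 for MED13, and MED13L had 1.37 over 23 pairs (0.76 to 1.84). From every pair to those with at least 5 input reads, the difference over all clusters went from 1.36 to 0.82. That of MED13 went from 2.16 to 1.99, and that of MED13L stayed at 1.37. As a description, folds of paired clusters followed each other with a Pearson's r of 0.69 and a Spearman's rho of 0.67 over the 231 pairs, which share libraries and genes.

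Of the 24 other subunits on a list of 33 Mediator genes, written from general knowledge, 23 held a cluster in replicate 1 and 17 in replicate 2. Their enriched peaks were 21 of 655 clusters for replicate 1 (3.21%) and 49 of 217 for replicate 2 (22.6%). MED15 alone held 10 of those 21 and 33 of those 49, and MED12L held 5 of those 21. By part of the complex, the 12 head genes had 0 of 237 clusters enriched in replicate 1 and 3 of 64 in replicate 2 (4.69%), and the 8 middle genes had 0 of 222 and 7 of 71 (9.86%). The 5 tail genes had 16 of 364 (4.4%) and 45 of 133 (33.8%). Of these, MED15 held 10 and 33, while MED23 and MED24 had 0 in replicate 1, so the tail shares rest mostly on MED15. The 7 kinase module genes had 20 of 977 (2.05%) and 47 of 333 (14.1%), against 1.39% and 12.8% of all clusters, and 5 of those 20 were clusters of MED12L over the 5S ribosomal RNA pseudogene RNA5SP145. All 30 reproducible peaks of the list fell in 3 genes, MED13, MED13L and MED15. Enriched peaks in each replicate were found in those 3 and in MED25.

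MED15, a tail subunit bound by transcriptional activators, spans chr22:20507610-20587619 on the plus strand. Enriched were 10 of 145 clusters in replicate 1 and 33 of 77 in replicate 2, and it held 8 reproducible peaks. All 8 lay within 226 bases, at chr22:20572841-20573066. The highest, at chr22:20573046-20573066, had log2 folds of 5.65 in replicate 1 with 333 IP over 2 input reads and 6.78 in replicate 2, where the ratio was 304 to 5. Both replicates reached 3 in 5 of the 8. MED25, another tail subunit, had 1 of 43 clusters enriched in replicate 1, at a fold of 3.07, and 9 of 18 in replicate 2, with a highest fold of 5.28 and 0 reproducible peaks.

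Among the 2406 genes with at least 20 clusters in each replicate, MED13 ranked 4 by reproducible peaks, 43 by enriched peaks of replicate 2 and 150 by enriched peaks of replicate 1. MED13L ranked 17, 219 and 77, and MED15 ranked 21, 20 and 59 on the same 3 counts. MED13 thus stood higher in replicate 2 than in replicate 1, and MED13L the other way round.

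Likeness to MED13 was measured as the Euclidean distance over log2 of the 3 counts plus 1, where a distance of 0 means the same counts. The nearest gene was XPO1, the nuclear export receptor, at 0.554, with 4 enriched peaks in replicate 1, 31 in replicate 2 and 12 reproducible peaks. LARS1, a leucyl-tRNA synthetase, and the long noncoding RNA LINC00534 both had 7, 18 and 10 and a distance of 0.644. TNPO3, a nuclear import receptor, had 8, 18 and 10 at 0.714, and PPP6R3, a regulatory subunit of protein phosphatase 6, had 10, 24 and 10 at 0.747. MED15 lay at 0.971 and MED13L at 1.18. The counts depend on a gene's length and number of clusters, which for MED13 were 122674 bases and 179 and 92 clusters, against 60764 bases and 180 and 108 clusters in XPO1.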

How the data were processed

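Per the submitters' processing notes, adapters were handled with cutadapt 1.9 and reads with STAR 2.4.0i. The notes name hg19, GRCh38 and hg38 with no role, and no source used here names the peak caller. The authors deposited 3 peak lists, 1 for each replicate and 1 that combines them. Their log2 fold values are the authors' IP over input per cluster. The deposited −log10 p values are the authors' own for the same contrast and stop at 400. No source used here gives the total reads of a library.

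Clusters were assigned to genes by midpoint with RefSeq spans of GRCh38.p14. Strands of the members came from a RefSeq promoter table or, for MED13 and MED14, from the clusters themselves, where at least 80% of at least 5 clusters shared one. The clusters also set the strand of MED6, MED8, MED21, MED22, MED28 and MED30. For the 13157 genes behind the gene shares and ranks, the clusters were used first and the table where they did not decide. A gene lying inside another on the opposite strand could thus take that gene's clusters. Of 10 promoter windows in that table for 7 of the members, 0 held a cluster, so no sequence is shown.

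Reads were recovered from the steps of the fold, a log2 ratio of integers shifted by a fixed amount in each replicate. Trying every denominator to 200 within 1e-07, 99.9% of replicate 1 and 99.7% of replicate 2 folds lay on such steps, against 2.36% and 0.882% of distinct values after a shift. The commonest fold was taken as 3 IP reads over 1 input read. An exact binomial test where a count was under 5, or a chi-square test with continuity correction otherwise, then matched the authors' −log10 p within 0.02 for 99.6% of 48802 and 98.5% of 68681 clusters with a −log10 p of 1 to 400. This gave the reads of all 7298 and 19869 enriched peaks with a −log10 p under 400. On simulated clusters that took only the depth of each replicate, 98.5% of 1987 and 97.5% of 1979 were recovered exactly. Their p came from the same formula that the recovery inverts, so this checks the procedure and not the authors' reads. Simulated input reads were drawn evenly, whereas 47.0% and 31.0% of the enriched peaks had 1 input read.

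The fold in the combined list was the mean of both replicates over the same interval, and its −log10 p was the smaller of both. Where an interval was identical to a cluster of replicate 1 alone, the fold this implies for replicate 2 lay on that replicate's steps in 774 of 777 cases. Where it was identical to a replicate 2 cluster alone, it did so for replicate 1 in 928 of 928. After a shift the shares were 2.45% and 7.22%. The other replicate's folds and reads were derived in this way. The listed p was matched by the derived reads within 0.02 in all 133 and 858 cases where it was below the p of the identical cluster.

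Intervals on folds come from the exact binomial interval of the IP share of the reads. Named were all 9 members, other Mediator genes with a reproducible peak or an enriched peak in each replicate, the 5 genes nearest to MED13, the highest peak of each member in each list and every reproducible peak. Other members' peaks were named after their values were seen. Members and lists were chosen with earlier results of these data known. Alternatives varied the fold and p thresholds, the span rule, merging of touching peaks, the overlap rule, minimum input reads and the replicate used. Python 3.11.15, numpy 2.4.6, scipy 1.17.1 and pandas 2.3.3 were used.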

Additional observations from a re-analysis of the deposited data

How the results depend on the processing

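Of 49 alternatives over 10 results, 28 left a count within 1.5 times its value, or a share or median within its interval. The other 21 moved the result beyond that. Counts and shares have no sign to reverse, and the median fold difference kept its sign. The enriched peaks of the 9 genes in replicate 1, 15 in the report, became 33 when the log2 fold had to reach 2 and 8 when it had to reach 4, and MED13's 6 became 16 and 2. In replicate 2 a fold of at least 4 left 36 of 55 in the 9 genes and 17 of 26 in MED13. In the combined list it left 12 of 22 and 5 of 13. Merging touching peaks left 11 of the 22 reproducible peaks, 6 of MED13's 13 and 17 of its 26 in replicate 2.

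The minimum of 5 input reads for peak counts and a fold of at least 3 in each replicate were chosen after seeing the data. With at least 5 input reads, 1 of 15 and 17 of 55 peaks of the 9 genes and 1 of 6 and 12 of 26 peaks of MED13 were counted. A log2 fold of at least 3 in each replicate held for 11 of the 22 reproducible peaks and 5 of MED13's 13. Members with an enriched peak in each replicate numbered 2, or 4 at a fold of at least 2, when MED14 and MED24 were added. With 1 replicate left out the number ranged from 2 to 7, and replicate 2 alone gave 7. Overlap with any cluster in place of an enriched peak gave 100% and 87.3%. The cause was not tested for these results beyond what each alternative itself changes.

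No paired analysis was possible because the results come from no test, only from counts and values per peak. The folds of both replicates over the same intervals are given side by side instead. With 2 replicates their spread is poorly known, and low input reads limit the folds: at 1 input read an interval can span over 7 log2 units.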

Other observations

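Other subunits on the Mediator list had values that belong in no comparison above, and the genes named here were chosen after their values were seen. MED12L, a kinase module subunit, had 5 of 5 clusters enriched in replicate 1, with log2 folds of 3.94 to 7.01. The cluster at 7.01 had 1715 IP reads over 4 input reads, and reads were not recovered for those with a −log10 p of 400. All 5 overlapped the 5S ribosomal RNA pseudogene RNA5SP145, at chr3:151188099-151188223 inside MED12L, and the 1 cluster of replicate 2 there had a fold of 1.25. MED12, its paralog, had 0 of 28 clusters enriched in replicate 1 and 0 of 2 in replicate 2.

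MED16, a tail subunit, had 5 of 43 clusters enriched in replicate 1 and 0 of 11 in replicate 2, with 2.06 as its top log2 fold there. Its highest peak in replicate 1 had 68 IP over 1 input read and a fold of 4.35. MED26 of the middle had 0 among 75 clusters in replicate 1 and 4 among 27 in replicate 2, and the head genes MED17 and MED28 had 2 and 1 enriched peaks in replicate 2 and 0 in replicate 1. MED11, a head subunit, held no cluster in either replicate.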
